A study of Rattus norvegicus with 24 samples.

Results

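The 9 membrane-bound adenylyl cyclases, *Adcy1* to *Adcy9*, were read from RNA-Seq of the nucleus accumbens (NAc), a reward centre of the ventral striatum, in rats at P14. The pups were Sprague Dawley rats whose mothers or grandmothers had received oxycodone (oxy) or saline. They were taken by gene name and make up 9 of the 23950 genes listed for each of the 24 libraries. The members that carry the results are *Adcy5* (ENSRNOG00000002229), *Adcy1* (ENSRNOG00000059479), *Adcy9* (ENSRNOG00000049768) and *Adcy4* (ENSRNOG00000020401). Every member had exactly 1 row per library, and all 9 passed the filter on low values in every comparison. The libraries fell into 6 groups of 4, namely saline (SAL), postnatal oxy (PNO) and in utero oxy (IUO) pups of the F1 and of the F2 generation, with the 4 pups of a group drawn from separate litters. For the IUO groups, F0 females were gavaged with oxy at 10 mg/kg/day for 5 days, raised by 0.5 mg/kg/day over the next 10 days to 15 mg/kg/day, then mated, and dosed on through gestation and nursing to weaning. For the PNO groups, F0 dams received 15 mg/kg/day from birth of the litter to weaning. At P14 the F1 IUO pups had thus been exposed before birth and during nursing, and the F1 PNO pups during nursing. The F2 pups came from undosed F1 females mated with males that were not part of the experiment. The pups were male or female, and the sex of each library was not used here. No strain, transgene or other treatment separated the groups.

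Adenylyl cyclases convert ATP to cyclic AMP (cAMP), the messenger that activates protein kinase A. Receptors coupled to the stimulatory G proteins Gs and Golf raise their activity, and receptors coupled to the inhibitory Gi, including the opioid receptors on which oxy acts, lower it. Opioid agonists lower cAMP when first applied, and on longer exposure many cell types recover or exceed their starting cAMP level, a response known as adenylyl cyclase superactivation. The 9 isoforms differ in their other inputs. ADCY1, ADCY3 and ADCY8 respond to calcium and calmodulin, ADCY2, ADCY4 and ADCY7 are stimulated by the G protein beta-gamma dimer, ADCY5 and ADCY6 are inhibited by Gi and by calcium, and ADCY9 is only weakly sensitive to forskolin. ADCY5 is the main isoform of the striatum, where it acts downstream of dopamine and adenosine receptors through Golf.

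The promoters of *Adcy5*, *Adcy1* and *Adcy9* are shown because it was in these 3 members that F1 IUO pups lay above F1 PNO pups, as described further on. Each sequence is the RefSeq reference for GRCr8, written 5′ to 3′ on the gene's own strand, from 250 bases before to 50 bases after the annotated start. Capitals mark matches on either strand to GGGCGG, the GC box bound by SP1-type factors, or to TGACG, the core of the cAMP response element.
Adcy5 (chr11:79123294-79123593, minus strand): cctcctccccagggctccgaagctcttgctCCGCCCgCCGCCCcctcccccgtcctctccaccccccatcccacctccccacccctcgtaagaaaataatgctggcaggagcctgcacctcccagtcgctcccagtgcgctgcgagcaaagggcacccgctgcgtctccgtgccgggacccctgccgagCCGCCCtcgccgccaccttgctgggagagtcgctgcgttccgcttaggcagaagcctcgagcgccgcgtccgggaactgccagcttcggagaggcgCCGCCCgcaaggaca
Adcy1 (chr14:86124869-86125168, plus strand): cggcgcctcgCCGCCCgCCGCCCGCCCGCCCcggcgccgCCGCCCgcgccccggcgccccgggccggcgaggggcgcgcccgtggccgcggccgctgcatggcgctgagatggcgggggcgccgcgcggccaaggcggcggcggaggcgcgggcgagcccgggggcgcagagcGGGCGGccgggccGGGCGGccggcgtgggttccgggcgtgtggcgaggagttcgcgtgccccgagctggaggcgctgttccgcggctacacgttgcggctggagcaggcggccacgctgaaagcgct
Adcy9 (chr10:11645595-11645894, plus strand): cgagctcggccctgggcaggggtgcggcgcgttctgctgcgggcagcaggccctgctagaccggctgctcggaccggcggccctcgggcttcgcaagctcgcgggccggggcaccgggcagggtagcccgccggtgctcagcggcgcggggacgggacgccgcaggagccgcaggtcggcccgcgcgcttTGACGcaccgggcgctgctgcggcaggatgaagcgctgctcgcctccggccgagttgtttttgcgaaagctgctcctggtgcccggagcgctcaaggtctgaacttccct

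The *Adcy5* promoter held 4 GC box matches and the stretch printed for *Adcy1* 7, some of which overlap, and neither held TGACG. In the *Adcy1* stretch an open reading frame runs from an ATG before the annotated start to the end. Its later part may therefore be coding sequence, and the matches written GGGCGG lie within that frame. The matches and GC content given for *Adcy1* describe the printed stretch, not a verified promoter. The *Adcy9* promoter held 1 TGACG and no GC box. Across all 33469 promoters of the same length, 33.1% held GGGCGG and 21.2% held TGACG on either strand. The complete palindrome TGACGTCA, present in 1.83% of all promoters, and TATAAA, present in 14.2%, were found in none of the 6 members with an entry, which were *Adcy1*, *Adcy2*, *Adcy4*, *Adcy5*, *Adcy7* and *Adcy9*. The promoters of *Adcy5*, *Adcy1* and *Adcy9* had a GC content of 70.7%, 84.7% and 74.0%, against a median of 51.7%. A match to these letters is a description of the sequence only. TGACG does not overlap GGGCGG in these promoters.

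Several libraries stood apart in the markers of neighbouring tissue. Levels are given in FPKM, fragment counts divided by transcript length and library size, which allows levels to be compared between genes. Markers of striatal projection neurons were present in all 24 libraries, with 8 markers summing to between 400 and 1303 FPKM. The 8 choroid plexus markers summed to between 255 and 12252 FPKM in 7 libraries, of which F1 PNO and F1 IUO held 2 each, F1 SAL, F2 PNO and F2 IUO 1 each and F2 SAL 0, and to between 5.40 and 83.5 FPKM in the other 17. Cortical excitatory neuron markers summed to 10.5 FPKM in the library F1 SAL 3 and 24.8 FPKM in F2 PNO 1, the lowest of their groups, and reached 370 FPKM elsewhere. In such bulk tissue, fewer cells of a type and less RNA per cell cannot be told apart.

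*Adcy5* was the most abundant adenylyl cyclase mRNA, at 55.0 ± 14.5 FPKM (SD, n = 24), and on average made up 42.1% of the summed FPKM of the family. *Adcy2* followed at 32.1 ± 3.80 FPKM and was below *Adcy5* in 22 of 24 libraries. *Adcy3* at 11.97 ± 1.28 FPKM and *Adcy1* at 11.9 ± 5.88 FPKM came next, and *Adcy3* was the higher of these in 14 libraries only. *Adcy6* at 6.29 ± 1.39 FPKM, *Adcy8* at 5.28 ± 1.61 FPKM and *Adcy9* at 3.98 ± 1.25 FPKM were at intermediate levels that overlapped among libraries. *Adcy7* at 1.38 ± 0.53 FPKM and *Adcy4* at 1.14 ± 0.43 FPKM were the lowest, and *Adcy7* was above *Adcy4* in 14 of 24 libraries. *Adcy10*, the soluble adenylyl cyclase that is not part of this family of membrane enzymes, had group means between 0.015 and 0.08 FPKM.

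The members varied among libraries to very different degrees. *Adcy3* spanned 1.59-fold and *Adcy2* 1.70-fold from the lowest to the highest library, and 2.14% and 6.45% of all genes tested had a smaller SD of log2(FPKM + 0.1). *Adcy1* spanned 31.9-fold, from 0.72 FPKM in F2 PNO 1 to 22.9 FPKM in F1 IUO 4, and 88.2% of genes had a smaller SD. *Adcy4*, *Adcy7* and *Adcy9* spanned 10.2-fold, 7.97-fold and 6.62-fold, and *Adcy5*, *Adcy6* and *Adcy8* between 2.52-fold and 3.46-fold. The highest library for *Adcy1*, *Adcy2*, *Adcy3*, *Adcy5*, *Adcy6* and *Adcy9* was F1 IUO 4. That library also had the lowest summed FPKM over all genes, 535866.

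**Figure D1:**
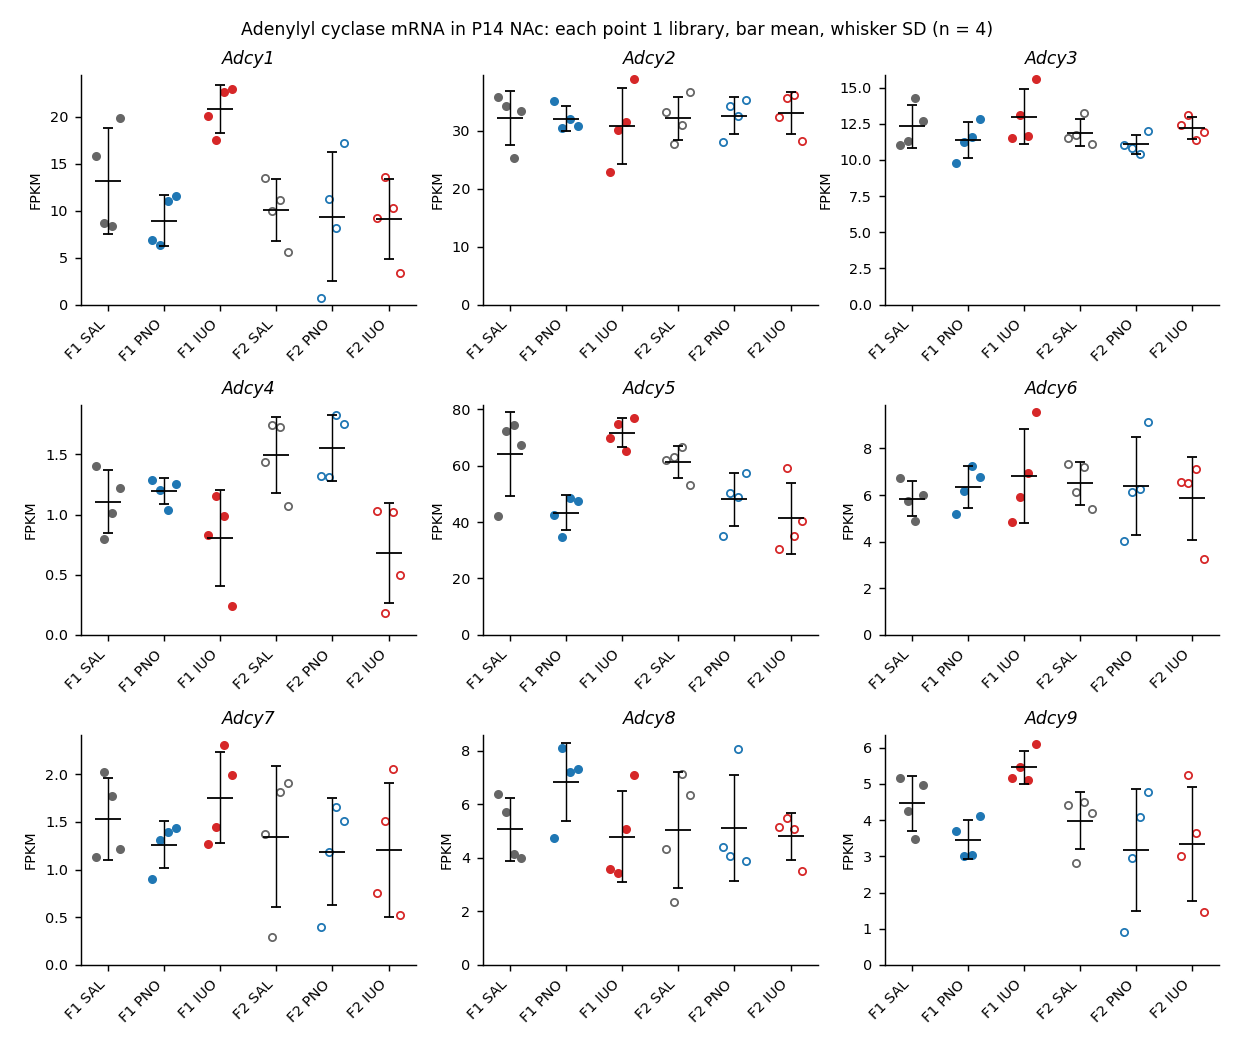
FPKM of each adenylyl cyclase (y axis, linear, starting at 0) in the 24 libraries by group (x axis), with filled points for F1, open points for F2, a bar for the mean and whiskers for the SD (n = 4). *Adcy2* and *Adcy3* lie in a narrow band in all 6 groups, *Adcy5* is below saline on average in F1 PNO, F2 PNO and F2 IUO, and *Adcy1* is highest in F1 IUO at 20.8 FPKM.

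Among the calcium and calmodulin responsive isoforms, *Adcy1* had the most variable level. It is known in brain for its coupling of calcium entry to cAMP at synapses. *Adcy1* was at 20.10, 17.49, 22.68 and 22.94 FPKM in F1 IUO, at 6.89, 6.39, 10.98 and 11.54 FPKM in F1 PNO and at 15.80, 8.66, 8.39 and 19.84 FPKM in F1 SAL. All 4 F1 IUO libraries were thus above all F1 PNO libraries, whereas the saline libraries overlapped both. In F2 it was at 9.18, 13.55, 10.24 and 3.34 FPKM in IUO, at 0.72, 11.25, 8.13 and 17.23 FPKM in PNO and at 13.43, 9.98, 11.17 and 5.56 FPKM in SAL. The 3 F2 groups overlapped, with the lowest value of the series in F2 PNO 1, the library with the lowest cortical markers of its group.

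*Adcy3*, a major isoform of olfactory neurons and of neuronal primary cilia, had group means between 11.07 and 12.97 FPKM, and its groups overlapped in every comparison. *Adcy8* was at 4.74, 8.09, 7.21 and 7.32 FPKM in F1 PNO, with a mean of 6.84 ± 1.45 FPKM (SD, n = 4). The other 5 groups had means between 4.79 and 5.11 FPKM. No neighbours in the order of means differed by more than the larger of their SDs.

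*Adcy2*, the most abundant of the beta-gamma stimulated isoforms, had group means between 30.8 and 33.0 FPKM, and no neighbours in their order differed by more than the larger of their SDs. *Adcy7* lay between 1.19 and 1.76 FPKM. *Adcy4*, at the lowest level of the family, was at 0.83, 1.15, 0.99 and 0.24 FPKM in F1 IUO, at 1.29, 1.20, 1.04 and 1.25 FPKM in F1 PNO and at 1.40, 0.80, 1.01 and 1.22 FPKM in F1 SAL. In F2 it was at 1.03, 0.18, 1.02 and 0.50 FPKM in IUO, at 1.32, 1.31, 1.83 and 1.75 FPKM in PNO and at 1.44, 1.74, 1.73 and 1.07 FPKM in SAL. All 4 F2 IUO libraries were below all F2 PNO and all F2 SAL libraries, and 2 of the 4 were below 1 FPKM.

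The Gi-inhibited isoforms *Adcy5* and *Adcy6* behaved differently from each other. *Adcy5* was at 69.86, 74.88, 65.38 and 77.04 FPKM in F1 IUO, at 42.62, 34.81, 48.46 and 47.44 FPKM in F1 PNO and at 42.10, 72.35, 74.62 and 67.49 FPKM in F1 SAL. F1 IUO lay entirely above F1 PNO, and 3 of the 4 F1 SAL libraries did as well. The exception, F1 SAL 1, also had the lowest sum of striatal markers of its group, 486 FPKM, and a choroid plexus sum of 5203 FPKM. In F2, *Adcy5* was at 30.60, 59.02, 35.19 and 40.44 FPKM in IUO, at 35.11, 50.48, 49.02 and 57.49 FPKM in PNO and at 62.08, 63.17, 66.49 and 53.13 FPKM in SAL. A single library of each oxy group reached into the saline range. *Adcy6* had group means between 5.84 and 6.82 FPKM, and *Adcy9*, the remaining isoform, is taken up with the comparisons.

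Each pair of groups within a generation was compared by limma on log2(FPKM + 0.1), with Benjamini-Hochberg adjustment over all genes tested. No member had an adjusted p under 0.05 in any of the 6 comparisons, which was also the case for nearly all genes. The percent of genes past that threshold was 0% for F1 IUO against F1 SAL, 0% for F1 PNO against F1 SAL, 0.133% for F1 IUO against F1 PNO, 0% for F2 IUO against F2 SAL, 0.00576% for F2 PNO against F2 SAL and 0% for F2 IUO against F2 PNO. Members are therefore described by whether their unadjusted limma p was under 0.05, with the share of all genes past the same threshold beside each count. Besides this, the rule of the study's methods was applied, an unadjusted p under 0.05 with a 1.5-fold ratio of mean FPKM. Groups of 4 against 4 were also compared by a two-sided exact permutation test of the mean log2 values, whose smallest possible p is 0.0286. The comparisons of IUO and of PNO with saline share the saline libraries of that generation and are not independent of each other.

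The comparison of F1 IUO with F1 PNO had the most members past the unadjusted threshold. These groups differ in exposure before birth and also in the dosing of the mothers before mating, and the comparison cannot tell these apart. *Adcy1*, *Adcy5* and *Adcy9* were higher in F1 IUO and none was lower, so 3 of 9 members were past it in the higher direction against 10.1% of all genes, and 0 against 6.41% in the lower direction. *Adcy1* was higher by 1.25 ± 0.21 on the log2 scale (SE, limma adjusted p = 0.0721). *Adcy5* was higher by 0.74 ± 0.12 (limma adjusted p = 0.0695). *Adcy9* was at 5.17, 5.45, 5.11 and 6.09 FPKM in F1 IUO and at 3.69, 3.01, 3.03 and 4.12 FPKM in F1 PNO, without overlap, a difference of 0.65 ± 0.16 (limma adjusted p = 0.127). Each of the 3 had an exact permutation p of 0.0286, the smallest possible. In the other groups, which overlapped one another, the mean of *Adcy9* was 4.46 ± 0.77 FPKM in F1 SAL, 3.98 ± 0.79 FPKM in F2 SAL, 3.34 ± 1.57 FPKM in F2 IUO and 3.18 ± 1.69 FPKM in F2 PNO (SD, n = 4). The same 3 members passed the rule with a 1.5-fold ratio, as did 7.08% of all genes.

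Tissue markers moved with this comparison. Of the 8 striatal projection neuron markers, 5 were higher in F1 IUO at an unadjusted limma p under 0.05, and their sum was 818 to 1147 FPKM against 526 to 727 FPKM in F1 PNO. Of the 5 thalamus markers, 3 were lower, with sums of 23.7 to 123 FPKM against 92.8 to 239 FPKM. Of the 6 hypothalamus markers tested, 5 were higher, with sums of 43.8 to 158 FPKM against 3.99 to 12.7 FPKM. With the mean striatal marker level as a covariate, *Adcy5* was higher by 0.62, *Adcy1* by 1.27 and *Adcy9* by 0.55 on the log2 scale. With the thalamus marker level as the covariate the values were 0.69, 1.36 and 0.72. Without the 7 libraries with choroid plexus markers, which leaves 2 per group, *Adcy5* was higher by 0.83 and *Adcy1* by 1.12 on the log2 scale, and *Adcy9* by 0.58 with a limma p of 0.0611. The part of the hypothalamus markers in these differences was not tested. In a fit of all 24 libraries, *Adcy1* and *Adcy9* were no longer past the unadjusted threshold.

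Against saline, *Adcy1* was the only member past the unadjusted threshold in F1 IUO, higher by 0.75 ± 0.27 on the log2 scale (SE, limma adjusted p = 0.999). This was 1 of 9 members against 1.93% of all genes in the higher direction, and 0 members against 1.97% in the lower direction. *Adcy1* also passed the rule with a 1.5-fold ratio, which 2.45% of all genes did. The exact permutation p was 0.0571 and the groups overlapped. F1 SAL 2 and F1 SAL 3, with 8.66 and 8.39 FPKM, were the low saline libraries, and their cortical markers summed to 74.1 and 10.5 FPKM against 268 and 339 FPKM in the other saline libraries. With the cortical marker level as a covariate the difference of *Adcy1* was 0.38 and no longer past the unadjusted threshold. Without F1 SAL 2 or without F1 SAL 3 it was not past it either, at 0.58 and 0.56. The same was so in a fit of all 24 libraries. Without the libraries with choroid plexus markers the difference of *Adcy1* was 0.73, with a limma p of 0.0947. Of the 6 hypothalamus markers tested, 4 were higher in F1 IUO at an unadjusted limma p under 0.05, and their part in the result was not tested.

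In F1 PNO against saline, *Adcy5* alone was past the unadjusted threshold. It was lower by -0.54 ± 0.19 on the log2 scale (SE, limma adjusted p = 0.282), 1 of 9 members against 7.83% of all genes in the lower direction, with 0 members against 6.11% in the higher direction. Mean FPKM was 43.3 ± 6.23 in F1 PNO and 64.1 ± 15.0 in F1 SAL (SD, n = 4). Its ratio of means fell short of 1.5-fold, so that 0 members passed that rule against 4.48% of all genes. The exact permutation p was 0.114, and F1 SAL 1 lay within the range of the PNO libraries. Thalamus markers were higher in F1 PNO for 4 of 5 genes. With their level as a covariate the difference of *Adcy5* was -0.23 and no longer past the unadjusted threshold. With the cortical marker level as a covariate it was not past it either. Of the 8 striatal markers 0 were past the unadjusted threshold, but their median was -0.43 on the log2 scale. Their mean sum was 655 ± 94.7 FPKM in F1 PNO against 938 ± 343 FPKM in F1 SAL (SD, n = 4). With the striatal marker level as a covariate *Adcy5* stayed past the unadjusted threshold. Hypothalamus markers were lower for 3 of 6 genes tested and microglia markers for 2 of 5, with microglia sums of 58.9 to 75.4 FPKM against 72.8 to 92.5 FPKM in saline, and their part in the result was not tested. Without F1 PNO 2, F1 SAL 2 or F1 SAL 3 it was no longer past the unadjusted threshold, at -0.44, -0.47 and -0.46. Without F1 SAL 1 it was -0.73. Without the libraries with choroid plexus markers, which include F1 SAL 1, it was -0.81, with only F1 PNO 2 and 4 and F1 SAL 2, 3 and 4 left.

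In F2 IUO against saline, *Adcy5* and *Adcy4* were past the unadjusted threshold. *Adcy5* was lower by -0.61 ± 0.19 on the log2 scale (SE, limma adjusted p = 0.501), with 41.3 ± 12.5 FPKM in F2 IUO and 61.2 ± 5.71 FPKM in F2 SAL (SD, n = 4) and an exact permutation p of 0.0571. *Adcy4* was lower by -1.21 ± 0.47 (limma adjusted p = 0.567), without overlap and with an exact permutation p of 0.0286. These were 2 of 9 members against 4.97% of all genes in the lower direction, with 0 against 3.52% in the higher direction. *Adcy4* alone passed the rule with a 1.5-fold ratio, against 4.19% of all genes. Striatal markers were lower for 2 of 8 genes and cortical markers higher for 5 of 7 genes in F2 IUO. Microglia markers were lower for 2 of 5 genes, with sums of 61.0 to 81.3 FPKM against 78.9 to 101 FPKM in saline, and their part in the result was not tested. F2 IUO 1 and F2 IUO 3, the lowest for *Adcy5*, had striatal sums of 400 and 434 FPKM against 779 and 987 FPKM in the other F2 IUO libraries. With the striatal marker level as a covariate the difference of *Adcy5* was -0.37 and no longer past the unadjusted threshold. Leaving out F2 IUO 2, F2 IUO 4 or any of F2 SAL 1, 2 and 3 left *Adcy4* with an unadjusted p above 0.05, at differences from -1.45 to -0.78 over all single omissions. With the cortical marker level as a covariate, *Adcy4* was at -1.16 and also no longer past it.

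In F2 PNO against saline, *Adcy5* was again the member past the unadjusted threshold, lower by -0.37 ± 0.16 on the log2 scale (SE, limma adjusted p = 0.452), with 48.0 ± 9.37 FPKM in F2 PNO (SD, n = 4). This was 1 of 9 members against 6.83% of all genes in the lower direction, with 0 against 3.97% in the higher direction, and no member passed the rule with a 1.5-fold ratio against 4.54% of all genes. The exact permutation p was 0.0571. The difference stayed past the unadjusted threshold in 7 of 19 alternative settings and lay between -0.46 and -0.22. Leaving out any of F2 PNO 1, 2 and 3 or of F2 SAL 1, 2 and 3 ended it. So did the striatal or the thalamus marker level as a covariate, upper-quartile rescaling, the replicate block and a fit of all 24 libraries. Microglia markers were lower for 2 of 5 genes in F2 PNO, and their part in the result was not tested.

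In F2 IUO against F2 PNO, *Adcy4* was lower by -1.27 ± 0.48 on the log2 scale (SE, limma adjusted p = 0.643), again without overlap and with an exact permutation p of 0.0286. This was 1 of 9 members against 2.48% of all genes in the lower direction, with 0 against 4.59% in the higher direction. *Adcy4* passed the rule with a 1.5-fold ratio, as did 3.38% of all genes. Both comparisons rest on the same 4 F2 IUO libraries, at 0.18 to 1.03 FPKM, a range in which the addition of 0.1 FPKM before taking logs understates the fold change. Leaving out F2 IUO 2, F2 IUO 4, F2 PNO 3 or F2 PNO 4 left an unadjusted p above 0.05, with differences from -1.51 to -0.84 over all single omissions, and so did the cortical marker level as a covariate, at -1.29.

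**Figure D2:**
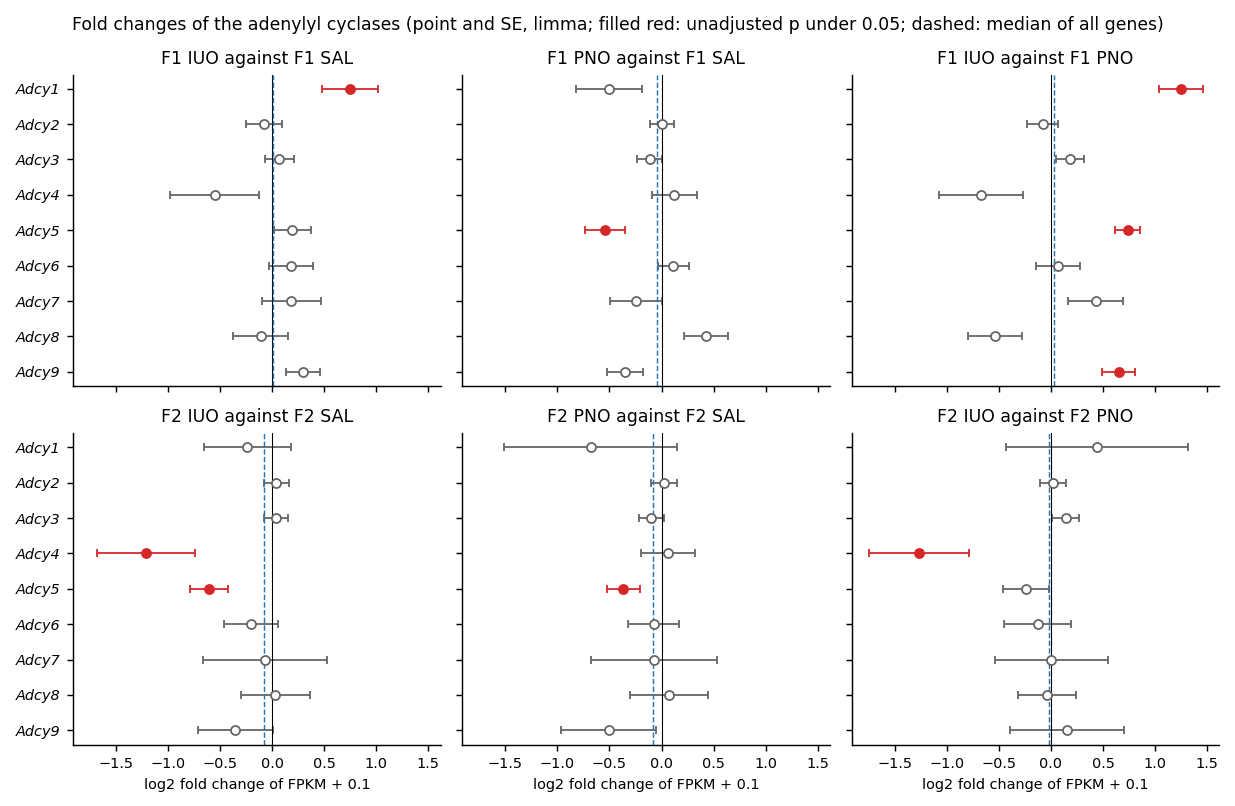
Log2 fold change of FPKM + 0.1 (x axis) for each member (y axis) in the 6 comparisons, as the limma estimate with its SE, with filled red points for an unadjusted p under 0.05 and a dashed line at the median of all genes. *Adcy5* lies below 0 in the F1 PNO, F2 PNO and F2 IUO comparisons with saline, while *Adcy2* and *Adcy3* stay near 0 in all 6.

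The difference between generations was tested as an interaction. For IUO against saline, *Adcy5* was the member past the unadjusted threshold, with a fold change in F2 minus that in F1 of -0.80 ± 0.27 on the log2 scale (SE, limma adjusted p = 0.924), 1 of 9 members against 5.15% of all genes. Without the libraries with choroid plexus markers this was -0.50 and no longer past the unadjusted threshold. For IUO against PNO it was again *Adcy5*, with -0.98 ± 0.26 (limma adjusted p = 0.738), 1 of 9 members against 5.76% of all genes. For PNO against saline 0 members were past the unadjusted threshold, against 4.06% of all genes. No gene at all had an adjusted p under 0.05 in these interactions by limma, 0% of those tested. *Adcy5* was thus 71.8 ± 5.23 FPKM in F1 IUO and 41.3 ± 12.5 FPKM in F2 IUO, with saline at 64.1 and 61.2 FPKM.

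A single F test over the 6 groups gave *Adcy5* the smallest p of the family, 0.000989 (limma, adjusted p = 0.117), followed by *Adcy4* with 0.0228 (adjusted p = 0.238). These were 2 of 9 members past the unadjusted threshold, against 16.6% of all genes, and 0 members past the adjusted one, against 0.141% of all genes. The other 7 members had an unadjusted p of 0.133 or more. In order of group means, *Adcy5* was highest in F1 IUO, then F1 SAL, F2 SAL, F2 PNO, F1 PNO and F2 IUO, and of these neighbours only F2 SAL and F2 PNO differed by more than the larger of their SDs. The summed FPKM of the 9 members was 156 ± 16.7 in F1 IUO, 140 ± 10.9 in F1 SAL and 115 ± 10.2 in F1 PNO, and 134 ± 9.54 in F2 SAL, 118 ± 23.7 in F2 PNO and 112 ± 20.6 in F2 IUO (SD, n = 4).

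The members' levels were related to the marker lists over the 24 libraries, as the mean log2(FPKM + 0.1) of a list, in 72 relations. *Adcy8* and the thalamus markers had a Pearson r of 0.91 and a Spearman rho of 0.93, each with the smallest permutation p of 1e-05 that 100000 permutations can give (adjusted p = 0.00072). Without the 2 libraries farthest from the median r was 0.92, and after centring on group means 0.91. With the striatal markers *Adcy8* had r = -0.49 (permutation p = 0.0155, adjusted p = 0.0798) and rho = -0.65 (permutation p = 0.00082, adjusted p = 0.0175). That r was -0.50 after centring on group means. *Slc17a6*, *Nell1* and *Ntng1* were the genes with the pattern most like *Adcy8* (r = 0.90, 0.91 and 0.91 over 24 libraries), and *Slc17a6* encodes the vesicular glutamate transporter typical of thalamic neurons. F1 PNO, the group with the highest mean of *Adcy8*, was also the group with the highest range of thalamus marker sums. Such a relation cannot tell the share of thalamic tissue from the level of *Adcy8* per cell.

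*Adcy5* was related to the striatal projection neuron markers, with r = 0.73 (permutation p = 5e-05, adjusted p = 0.0018) and rho = 0.65 (permutation p = 0.00083, adjusted p = 0.0175). Without F2 IUO 1 and F2 IUO 3 r was 0.60, and after centring on group means 0.64. It was also related to the microglia markers, with r = 0.66 (permutation p = 0.00051, adjusted p = 0.00612) and rho = 0.62, but r was 0.35 after centring. The gene most like *Adcy5* was *Pde1b*, a calcium and calmodulin dependent phosphodiesterase abundant in striatal projection neurons (r = 0.96), followed by *Bcr* (r = 0.89) and *Inf2* (r = 0.89).

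*Adcy1* and *Adcy9* varied together, with r = 0.90 and rho = 0.80 over the 24 libraries, each with the smallest permutation p of 1e-05 (adjusted p = 0.00036 over 36 member pairs). F2 IUO 4 and F2 PNO 1 were the lowest libraries of the series for both, and without them r was 0.69. After centring on group means it was 0.87. F2 PNO 1 had the highest summed FPKM over all genes, 766781, and F2 IUO 4 had 709207 and the most genes at 0, 7532. The part of such library differences in this relation was not tested. The genes most like *Adcy1* were *Nav3*, *Gfod1* and *Hdac4* (r = 0.97, 0.97 and 0.96), and those most like *Adcy9* were *Aff3*, *Tln2* and *Gabrb2* (r = 0.96, 0.95 and 0.95). *Adcy1* and the cortical markers had r = 0.58 (permutation p = 0.00766, adjusted p = 0.0613) and rho = 0.54 (permutation p = 0.00697, adjusted p = 0.0456). That r was 0.37 without F2 PNO 1 and F1 SAL 3 and 0.79 after centring on group means. *Adcy7* and the hypothalamus markers had r = 0.50 (permutation p = 0.0120, adjusted p = 0.0739) and rho = 0.62 (permutation p = 0.00155, adjusted p = 0.0186). *Adcy1*, *Adcy6*, *Adcy7* and *Adcy9* were each related to the astrocyte markers, with r between 0.62 and 0.69, which came to between 0.40 and 0.45 without F2 IUO 4 and F2 PNO 1 and so rests in good part on these libraries. After centring on group means these r were between 0.58 and 0.73. *Adcy9* was also related to the endothelial markers, with r = 0.60 (permutation p = 0.00433, adjusted p = 0.0390) and rho = 0.53. Without F1 PNO 1 and F2 SAL 3 that r was 0.85, and after centring on group means 0.62. For *Adcy1* and the endothelial markers r was 0.51 (permutation p = 0.0202, adjusted p = 0.0968), and 0.87 without the same libraries. F1 PNO 1 and F2 SAL 3 had the highest endothelial marker levels. The endothelial marker *Cldn5* was at 0 FPKM in all libraries of F1 SAL, F1 IUO, F2 PNO and F2 IUO. It reached 3.70 FPKM in F1 PNO and 5.76 FPKM in F2 SAL, and its part in these r was not tested. Of the 72 relations 8 had an adjusted p of r under 0.05, and of the 36 member pairs 11 did. Choroid plexus markers were left out of the relations because the libraries fell into separate clusters.

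**Figure D3:**
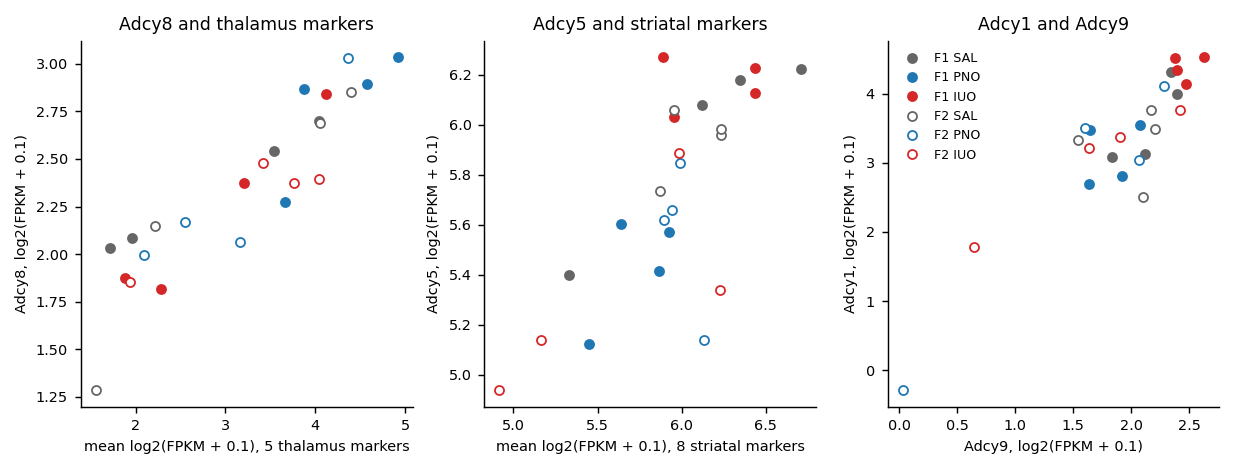
Levels on the log2(FPKM + 0.1) scale in 24 libraries, with 1 point per library, filled for F1 and open for F2 and coloured by treatment. From left to right, *Adcy8* against the mean of 5 thalamus markers (r = 0.91), *Adcy5* against the mean of 8 striatal markers (r = 0.73) and *Adcy1* against *Adcy9* (r = 0.90), where F2 PNO 1 and F2 IUO 4 lie far below the other libraries.

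For the other parts of the cAMP pathway, 55 genes were listed by role, of which 54 had a single row in the files, 53 or 54 passed the filter and none had an adjusted p under 0.05 by limma in any comparison. In F1 IUO against F1 PNO, 18 of 53 were higher and 1 lower at an unadjusted p under 0.05, against 10.1% and 6.41% of all genes, and the median was 0.26 on the log2 scale against 0.03 for all genes. They included 4 of 10 G proteins, 3 of 10 receptors, 3 of 14 effectors and targets, 6 of 13 phosphodiesterases and 2 of 6 anchoring proteins. *Prkacb*, a catalytic subunit of protein kinase A, was 0.66 ± 0.11 higher on the log2 scale (SE, limma adjusted p = 0.0721). *Akap5*, which anchors protein kinase A at synapses, was 0.94 ± 0.18 higher, and *Pde1b* 0.58 ± 0.12 higher. Some genes of the list, among them *Drd1*, *Drd2*, *Adora2a* and *Ppp1r1b*, are also striatal markers. The median of the 8 striatal markers was 0.52 in this comparison, and their part in the pathway differences was not tested.

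In F1 PNO against saline, 13 of 53 pathway genes were lower and 1 higher, against 7.83% and 6.11% of all genes, with a median of -0.21 on the log2 scale against -0.05. Of these, 6 were phosphodiesterases, the enzymes that degrade cAMP. The median of the 8 striatal markers was -0.43 in this comparison, and their part in the pathway differences was not tested. *Prkacb* was lower by -0.60 ± 0.10 (SE, limma adjusted p = 0.231), from 87.1 FPKM in saline to 57.6 FPKM. *Gnal*, the alpha subunit of Golf that couples dopamine and adenosine receptors to ADCY5, was lower by -0.59 ± 0.15, and *Pde7b*, a cAMP phosphodiesterase, by -0.59 ± 0.16. In F1 IUO against saline 1 of 54 pathway genes was higher and 0 lower, against 1.93% and 1.97% of all genes, which is a share near that of all genes. The gene was *Oprd1*, the delta opioid receptor, at 0.84 ± 0.31 (SE, limma adjusted p = 0.999), with 1.66 FPKM against 0.91 FPKM. The median of the list was 0.06 against 0.01 for all genes.

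In F2 IUO against saline, 15 of 53 pathway genes were lower and 0 higher, against 4.97% and 3.52% of all genes, with a median of -0.31 on the log2 scale against -0.08. *Gnal* was lower by -0.72 ± 0.12 (SE, limma adjusted p = 0.202), at 46.8 FPKM against 76.9 FPKM. *Pde8b*, a cAMP phosphodiesterase, was lower by -0.83 ± 0.19 and *Gng7*, the gamma subunit of striatal Golf, by -0.79 ± 0.21. In F2 PNO against saline 4 of 53 were lower and 0 higher, against 6.83% and 3.97% of all genes, so that the lower share was near that of all genes, with a median of -0.25 against -0.08, and the smallest p belonged to *Chrm4*, a Gi-coupled muscarinic receptor, at -0.41 ± 0.11. *Pde8b* was at -0.60 ± 0.22 and *Pde2a* at -0.35 ± 0.13 in that comparison. In F2 IUO against F2 PNO 4 of 53 were lower and 0 higher, against 2.48% and 4.59% of all genes, with a median of -0.14 against -0.01, and *Gnal* at -0.55 ± 0.13, *Pde8a* at -1.02 ± 0.32 and *Gng7* at -0.57 ± 0.22 had the smallest p. The median of the 8 striatal markers was -0.51 in F2 IUO against saline. It was -0.12 in F2 PNO against saline and -0.43 in F2 IUO against F2 PNO. Their part in the pathway differences was not tested. The shares of the list are descriptions, and no test of the list as a whole was made.

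**Figure D4:**
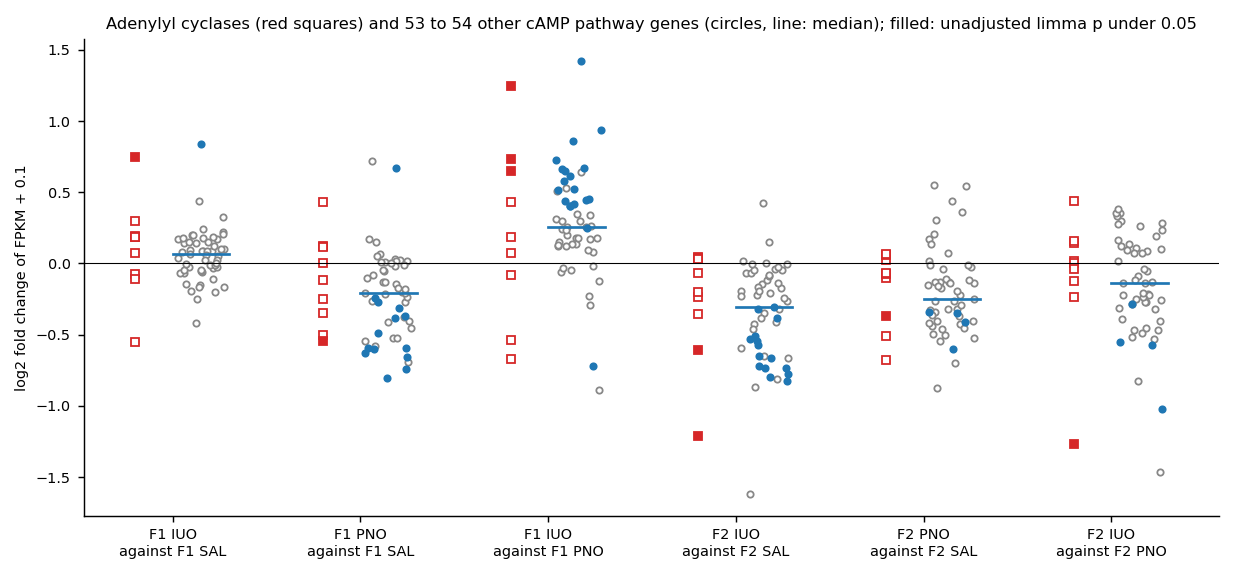
Log2 fold change of FPKM + 0.1 (y axis) in the 6 comparisons (x axis) for the 9 adenylyl cyclases (red squares) and the other cAMP pathway genes tested (circles, with a line at their median), filled where the unadjusted limma p was under 0.05. The median of the pathway genes is 0.26 in F1 IUO against F1 PNO and -0.31 in F2 IUO against F2 SAL.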

How the data were processed

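NAc tissue was dissected with a brain matrix and RNA of 24 pups was sequenced. Each library has 1 table, in which the authors give the FPKM of every gene, rounded to 2 decimals and estimated with StringTie after merging the transcriptomes of all libraries. The submitters' processing notes also name HISAT2 and SAMtools, with no version or genome build. The read depth is unknown, so counting error is not given, and the summed FPKM of a library was 535866 to 766781. FPKM values were not rescaled. The count test named in the study's methods could not be run on FPKM, so limma 3.58.1 in R 4.3.3 (lmFit, eBayes with trend) was fitted on log2(FPKM + 0.1), two-sided, over genes with at least 0.1 FPKM in 4 or more of the libraries compared, with Benjamini-Hochberg adjustment over all of them. The offset understates the change of low genes. Groups came from the sample labels. The 4 replicates came from separate litters.

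Exact permutation tests and relations used Python 3.11.15, numpy 2.4.6, pandas 2.3.3 and scipy 1.17.1, and figures matplotlib 3.10.9. The fit was tested on simulated data. The members and lists were chosen with earlier results of these data known. All 9 members were named in every group. Fold changes with p were given for members with an unadjusted p under 0.05, up to 3 pathway genes per comparison by smallest p, and up to 3 genes of the most like pattern (Pearson r over 24 libraries, among 11869 genes with a mean of at least 1 FPKM). *Gnas*, with more than 1 row, and *Itgam* and *Pecam1*, with none, were left out of the lists. The alternatives were another pseudocount, other filters, upper-quartile rescaling, a fit of all libraries, a replicate block, marker covariates and leaving out libraries. Leaving out the libraries with choroid plexus markers, taken as a mean log2 level above 1, and leaving out F2 PNO 1 with F2 IUO 4, were chosen after seeing the data. Promoter sequences came from RefSeq (GRCr8), which held 6 of the 9 members.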

Additional observations from a re-analysis of the deposited data

Results flagged for a closer look

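*Adcy6* in F2 IUO had 1 library far from the others. F2 IUO 4 was at 3.24 FPKM and the other libraries at 6.51 to 7.10 FPKM, and this gap made up 0.847 of the whole spread among the 4 libraries, past the 95% limit of Dixon's outlier test. *Adcy8* in F2 PNO had 1 high library, F2 PNO 3 at 8.08 FPKM against 3.89 to 4.39 FPKM in the others, a gap of 0.881 of the range. The thalamus markers summed to 163 FPKM in F2 PNO 3, the highest of its group. Chance alone flags about 1 in 20 groups, which is 2.7 of the 54 groups of 4 examined, and 2 were found.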

How the results depend on the processing

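Over the 10 tests and their 226 alternative settings, no member reached an adjusted p under 0.05 by limma, and the smallest adjusted p was 0.0539. The 11 fold changes with an unadjusted p under 0.05 kept their sign in all 220 of their alternative settings, and in 40 of these the unadjusted p was 0.05 or more. *Adcy5* in F1 IUO against F1 PNO stayed past the unadjusted threshold in 18 of 18 settings (0.61 to 0.83 on the log2 scale), and *Adcy1* in the same comparison in 17 of 18 (1.11 to 1.39). *Adcy9* stayed past it in 16 of 18 (0.53 to 0.74). The fit of all 24 libraries ended it for *Adcy1* and *Adcy9*, and leaving out the choroid plexus libraries ended it for *Adcy9*. *Adcy4* depended on the pseudocount, at -0.60 with a pseudocount of 1 in F2 IUO against saline. Upper-quartile rescaling moved the median fold change of all genes by -0.12 in both F1 comparisons of IUO and by -0.16 in F2 IUO against F2 PNO, and it lowered the number of marker relations with an adjusted p under 0.05 from 8 to 5. The replicate numbers of the labels gave no sign of pairing within a generation, where deviations of same-numbered libraries from their group means correlated at -0.23 to 0.11. This cannot exclude a shared batch, and pairing between generations was not examined. With the replicate block, 0 members were called and *Adcy5* in F2 PNO against saline was at -0.37 with an adjusted p of 0.623. The unknown read depth leaves the counting error of the low members *Adcy4* and *Adcy7* unknown.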

Other observations

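*Adcy8* was not past the unadjusted threshold in F1 PNO against saline, at 6.84 and 5.06 FPKM. Without the libraries with choroid plexus markers, *Adcy8* was higher in F1 PNO by 0.74 ± 0.21 on the log2 scale (SE, limma adjusted p = 0.189), and lower in F1 IUO than in F1 PNO by -1.12 ± 0.22 (limma adjusted p = 0.151). The fits left F1 PNO 2 and 4, with thalamus marker sums of 239 and 175 FPKM. The other libraries left were F1 IUO 1 and 2, at 23.7 and 31.3 FPKM, and F1 SAL 2, 3 and 4, at 78.0, 25.1 and 22.5 FPKM. The part of the thalamus markers in these differences of *Adcy8* was not tested. The differences were singled out after they were seen. Without F2 PNO 1 and F2 IUO 4, the difference between generations of *Adcy1* in IUO against PNO was -1.35 ± 0.37 (limma adjusted p = 0.280).

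The gene most like *Adcy7* over the 24 libraries was *Slc6a11* (r = 0.86), a GABA transporter of astrocytes, followed by *Kcnj10* (r = 0.86), an astrocytic potassium channel. The genes most like *Adcy2*, *Adcy3*, *Adcy4* and *Adcy6* were *Hr* (r = 0.79), *Fancf* (r = 0.76), *Tgif1* (r = 0.80) and *Atp6v0a2* (r = 0.89). The rank correlation of *Adcy4* with *Tgif1* was 0.49.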
